A study of Mus musculus with 3 samples.

Results

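Erythrocyte-lineage cells were a small group of globin-rich barcodes in a single-cell RNA data set of sorted mouse brain cells. A barcode was counted as erythrocyte-lineage when it held at least 500 UMIs (unique molecular identifiers, each standing for 1 captured transcript) and when the 4 adult globin genes *Hba-a1*, *Hba-a2*, *Hbb-bs* and *Hbb-bt* together made up at least 20% of them. The members were thus selected on their measured globin UMIs. This rule took in 115 of 35702 barcodes, or 0.322%, of which 65 came from *Wt*, 22 from *PLPmut* and 28 from *PLPtg* mice. The globins chose these barcodes, so globin levels are given below only as a description.

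The study asked how axon degeneration, demyelination and immune reactions relate to each other in mice with different defects of proteolipid protein (PLP). PLP is the main protein of central nervous system myelin. The 3 libraries came from 10-month-old mice on a C57BL/6J background, namely wildtype mice without a transgene (*Wt*), homozygous mice with a point mutation in the PLP protein (*PLPmut*) and hemizygous mice that overexpress normal PLP from additional gene copies (*PLPtg*). Each library pooled brains with optic nerves, leptomeninges and choroid plexus of 3 mice, after perfusion with heparin in saline, enzymatic dissociation, density centrifugation and a sort for viable cells that were either CD45low Siglec-H+ (microglia) or CD45- O1+ (oligodendrocytes), with 3′ counting on a droplet platform. The files held 13556 barcodes for *Wt*, 9955 for *PLPmut* and 12191 for *PLPtg*, with 77677489, 75251446 and 68760898 UMIs in the same order and a median of 5830, 7150 and 5568 UMIs per barcode. With 1 pooled library per genotype there was no replicate, no test between genotypes was possible, and all intervals below are 95% intervals that cover counting error only. Both mutant libraries were compared with the same *Wt* library, so the comparisons are not independent of each other.

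Red blood cells of adult mice carry hemoglobin made of alpha chains, encoded by *Hba-a1* and *Hba-a2*, and beta chains, encoded by *Hbb-bs* and *Hbb-bt*, each holding a heme group. Heme is built in a pathway that begins in erythroid cells with the enzyme Alas2 and ends with Fech, which inserts the iron. While they mature, red cells expel the nucleus, then clear mitochondria and ribosomes as reticulocytes, and circulate with a pool of left-over RNA that decays within days. They have no place among the sorted cell types, and in brain tissue they lie inside the blood vessels.

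The sequences upstream of the selecting globin genes and of *Alas2* are shown because the globins defined the barcodes and *Alas2* was the leading erythroid gene that the selection did not use. Each is the 250 bases before the RefSeq transcription start on GRCm38.p6, written 5′ to 3′ on the strand of the gene, with matches on either strand to 4 motifs in capitals. The motifs were GATAA (bound by GATA factors), CACCC (bound by erythroid Klf1), CCAAT (bound by NF-Y) and the TATA-like ATATAA, and a match on the opposite strand appears as the reverse complement. *Hba-a1* covered chr11:32283422-32283671 on the plus strand, *Hbb-bs* chr7:103827929-103828178 and *Hbb-bt* chr7:103813924-103814173 on the minus strand, and *Alas2* chrX:150547167-150547416 on the plus strand.
Hba-a1: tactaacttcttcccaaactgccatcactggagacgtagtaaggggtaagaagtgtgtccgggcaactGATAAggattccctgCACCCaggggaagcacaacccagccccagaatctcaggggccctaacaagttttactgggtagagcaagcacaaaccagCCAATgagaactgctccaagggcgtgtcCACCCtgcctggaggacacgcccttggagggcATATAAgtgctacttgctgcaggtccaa
Hbb-bs: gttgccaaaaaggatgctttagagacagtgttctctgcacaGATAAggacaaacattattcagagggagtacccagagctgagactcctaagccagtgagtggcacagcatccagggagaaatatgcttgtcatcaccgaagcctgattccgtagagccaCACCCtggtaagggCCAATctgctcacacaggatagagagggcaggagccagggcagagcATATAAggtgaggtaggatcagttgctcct
Hbb-bt: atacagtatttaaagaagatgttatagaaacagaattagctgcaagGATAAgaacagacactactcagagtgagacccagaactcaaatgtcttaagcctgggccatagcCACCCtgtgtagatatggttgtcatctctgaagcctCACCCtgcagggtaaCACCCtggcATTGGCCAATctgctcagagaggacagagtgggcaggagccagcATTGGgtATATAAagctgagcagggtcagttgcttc
Alas2: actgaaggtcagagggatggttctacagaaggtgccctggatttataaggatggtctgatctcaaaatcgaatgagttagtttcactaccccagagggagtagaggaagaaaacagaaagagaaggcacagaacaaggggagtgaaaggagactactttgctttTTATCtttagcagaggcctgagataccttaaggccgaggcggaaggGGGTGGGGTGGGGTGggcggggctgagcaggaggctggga

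The 3 globin windows printed above and that of *Hba-a2* (chr11:32296242-32296491, plus strand) each held all 4 motifs, as was the case for 0.466% of 32851 RefSeq windows of the same length. Singly, GATAA occurred in 22.6%, CACCC in 52.0%, CCAAT in 33.8% and ATATAA in 9.10% of these windows. The *Alas2* window held 1 GATAA match and 3 adjoining CACCC matches on the opposite strand, and neither of the other motifs. No matches shared a base in these windows. Gene spans were taken from GENCODE, whose outermost starts lie upstream of the RefSeq starts used here. The windows of all 5 genes therefore reach into the GENCODE spans of these genes, of which those of *Hba-a1* and *Alas2* are printed below. The windows of *Hba-a1* and *Hba-a2* were 97.6% identical in a global alignment, against 69.3% for *Hbb-bs* and *Hbb-bt*. The last 150 bases of the transcripts, where 3′ reads fall, were 80.1% identical between the alpha genes and 73.2% between the beta genes, and how reads shared by such copies were split was not given in the sources used here.

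The erythrocyte-lineage barcodes stood clearly apart from all others by their globin content. No barcode held between 10% and 20% globin UMIs, the highest outside the group held 6.58% in *Wt*, 1.17% in *PLPmut* and 2.91% in *PLPtg*, and the lowest inside it held 26.9%, 59.2% and 25.0%. Within the group the globin percentage had a median of 88.8% in *Wt* (highest 96.4%), 94.5% in *PLPmut* (highest 97.3%) and 88.2% in *PLPtg* (highest 95%). Total UMIs ran from 503 over a median of 7956 to 27416 in *Wt*, from 662 over 11415 to 19273 in *PLPmut*, and from 601 over 12101 to 23428 in *PLPtg*. The 3 libraries overlapped widely in both measures. All 115 barcodes passed the filter that the study describes (more than 100 and fewer than 6000 genes, at most 60% mitochondrial UMIs).

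As a share of all barcodes, erythrocyte-lineage barcodes made up 0.479% (Clopper-Pearson interval 0.370–0.611%) in *Wt*, 0.221% (0.139–0.334%) in *PLPmut* and 0.230% (0.153–0.332%) in *PLPtg*. The *Wt* share was 2.17 times (1.32–3.70) that of *PLPmut* and 2.09 times (1.32–3.38) that of *PLPtg*, a gap beyond counting error, and the mutant shares overlapped. All erythrocyte-lineage barcodes held 0.700%, 0.289% and 0.439% of the UMIs of the *Wt*, *PLPmut* and *PLPtg* libraries. How much blood stayed in the tissue after perfusion and passed the sort cannot be told apart from genotype with 1 library each. Of 122 barcode sequences that occurred in 2 libraries, 1 belonged to an erythrocyte-lineage barcode, found in *PLPtg* with 94.9% globin and in *Wt* with 9828 UMIs and 0.102% globin.

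**Figure D1:**
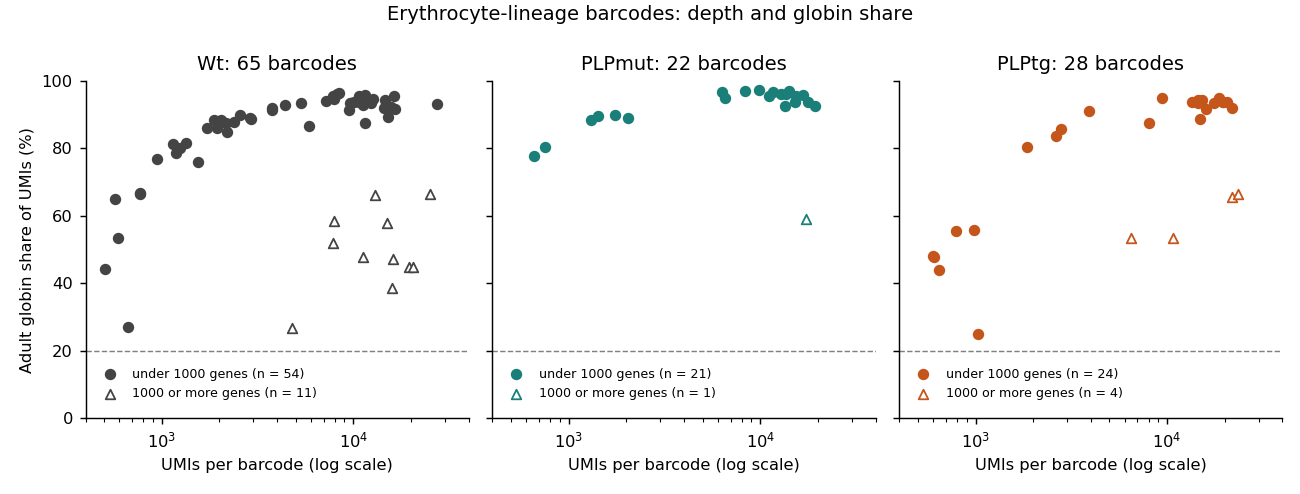
Total UMIs per barcode (log scale, x) against the percentage of adult globin UMIs (y) for every erythrocyte-lineage barcode in the 3 libraries, 1 panel each; filled circles are barcodes with fewer than 1000 genes (54, 21 and 24), open triangles those with 1000 or more (11, 1 and 4), and the dashed line is the 20% threshold. Most circles lie near the top of each panel, while the triangles lie lower, between 26.9% and 66.6% globin.

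The number of detected genes divided the barcodes, with a gap between the parts. In 99 of them it stayed at or below 881, and in the other 16 it began at 1462, with none in between, as the plot of globin percentage against UMIs shows by symbol. Genes per barcode had a lowest, median and highest value of 145, 281 and 3462 in *Wt*, of 107, 187.5 and 2742 in *PLPmut* and of 238, 395.5 and 2807 in *PLPtg*. The 16 gene-rich barcodes comprised 11 *Wt*, 1 *PLPmut* and 4 *PLPtg* barcodes, with a median globin share of 47.9%, 59.2% and 59.5%. They contributed 71.8% of all non-globin UMIs of the *Wt* group, 40.9% in *PLPmut* and 54.4% in *PLPtg*.

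The gene-rich barcodes carried red cell and microglial transcripts side by side. A list of 12 microglia genes (*P2ry12*, *Cx3cr1*, *Csf1r*, *C1qa*, *C1qb*, *C1qc*, *Tmem119*, *Siglech*, *Ctss*, *Trem2* and *Tyrobp* among them) made up 5.99% of their non-globin UMIs in *Wt*, 6.17% in *PLPmut* and 5.45% in *PLPtg*. In barcodes outside the group that held at least 4 of 6 microglia markers, called microglia-marker barcodes here (97.5%, 97.3% and 96.4% of all barcodes), the same list made up 6.33%, 6.51% and 6.35%. In the 99 gene-poor barcodes it was lower, at 3.01% (2.82–3.21%) in *Wt*, 1.96% (1.70–2.25%) in *PLPmut* and 2.78% (2.55–3.02%) in *PLPtg*. All 12 genes were detected in the erythrocyte-lineage barcodes, which held 5451, 633 and 1815 UMIs of the list in all. No doublet caller was run, and whether droplets with a red cell and a microglial cell account for the gene-rich barcodes was not tested.

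As a share of summed non-globin UMIs, erythroid genes that the selection did not use were higher in gene-poor than in gene-rich barcodes. A set of 61 genes for heme synthesis, red cell membrane, organelle clearance, and gas exchange with antioxidant enzymes made up 6.38% (6.23–6.53%) of non-globin UMIs over all erythrocyte-lineage barcodes in *Wt*, 16.0% (15.4–16.5%) in *PLPmut* and 10.3% (9.99–10.6%) in *PLPtg*. It made up 17.9% (17.5–18.3%) of the non-globin UMIs of gene-poor barcodes in *Wt*, 25.9% (25.1–26.8%) in *PLPmut* and 16.7% (16.2–17.2%) in *PLPtg*. In gene-rich barcodes the set made up 1.85%, 1.59% and 4.87%, and in microglia-marker barcodes 0.234%, 0.239% and 0.228%. Gene-poor barcodes with at least 5000 globin UMIs held 22.7%, 28.6% and 20.4%. Those with fewer held 2.08%, 1.31% and 2.75%, close to the gene-rich value in *Wt* and below it in *PLPmut* and *PLPtg*. The higher share of gene-poor barcodes thus came from those with at least 5000 globin UMIs. *Malat1*, a nuclear long non-coding RNA, took 0.970%, 0.522% and 1.96% of non-globin UMIs in gene-poor barcodes, 3.52%, 3.67% and 3.77% in gene-rich ones and 3.56%, 3.23% and 3.50% in microglia-marker barcodes. Gene-poor barcodes therefore had less *Malat1* than microglia-marker barcodes in all 3 libraries, and gene-rich ones had similar amounts. Mitochondrial transcripts made up 2.46%, 2.60% and 2.46% of non-globin UMIs in gene-poor and 1.84%, 1.71% and 1.58% in microglia-marker barcodes. Single barcodes weighed on the gene-poor values. Per gene-poor barcode the median was 1.64% in *Wt* and 2.03% in *PLPmut*, and the highest value 15.4% and 26.9%.

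**Figure D2:**
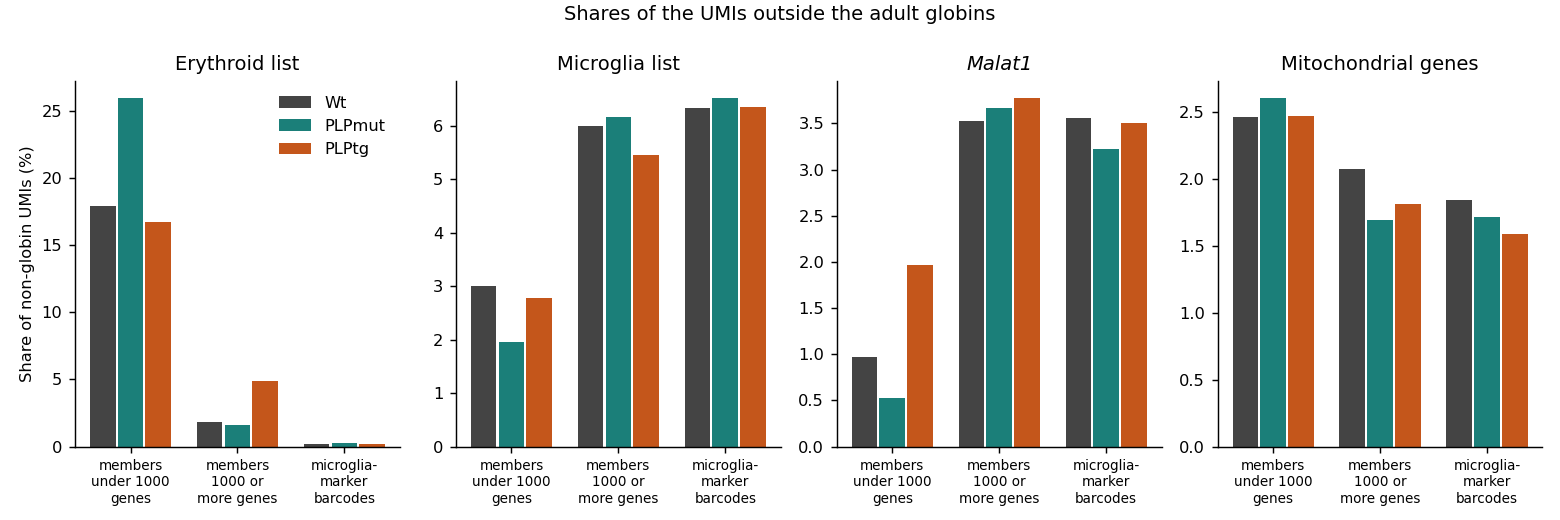
Percentage of non-globin UMIs (y) from the erythroid set, the microglia list, *Malat1* and mitochondrial genes in gene-poor erythrocyte-lineage barcodes, gene-rich ones and microglia-marker barcodes; bars are summed UMIs of each library. The erythroid set reaches 16.7 to 25.9% only in gene-poor barcodes among the classes drawn, while the microglia list in gene-rich barcodes (5.45–6.17%) lies near that in microglia-marker barcodes (6.33–6.51%).

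Markers of other blood and brain cells were at or near 0. Over the 3 libraries in the order *Wt*, *PLPmut* and *PLPtg*, neutrophil genes gave 3, 1 and 1 UMIs, platelet genes 9, 0 and 1, T cell genes 1, 0 and 0, B cell genes 3, 0 and 2, and endothelial genes 0, 0 and 2. Of 9 oligodendrocyte genes 3 were detected, with 16, 0 and 4 UMIs in all and most from *Cnp* (11 UMIs). They took 0.0151%, 0% and 0.00932% of non-globin UMIs, against 0.0123%, 0.0145% and 0.0150% in microglia-marker barcodes. Platelet genes took 0.00849%, 0% and 0.00233%, against 0.00505%, 0.00620% and 0.00531%. Both lists were thus higher than in microglia-marker barcodes in *Wt* only, from few UMIs. Choroid plexus genes gave 61, 4 and 12 UMIs, nearly all of them from *Ttr* (75 UMIs). The whole choroid plexus list was 0.0576%, 0.0233% and 0.0280% of non-globin UMIs, against 0.148%, 0.0898% and 0.124% in microglia-marker barcodes. Of the genes behind the sort, *Ptprc* (CD45) gave 30, 6 and 9 UMIs and *Siglech* 118, 13 and 40, and *Ugt8a*, which makes the galactolipid bound by O1, and *Gal3st1*, which adds sulfate to it, gave none. The erythrocyte-lineage barcodes thus carried the markers of red cells and, in part, of microglia, and hardly any of those of the other sorted type.

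The beta gene *Hbb-bs* gave most globin UMIs in each library, with 230004 in *Wt*, 104359 in *PLPmut* and 126234 in *PLPtg*, or 52.5%, 52.1% and 48.7% of the 4 globins. *Hba-a1* (ENSMUSG00000069919, chromosome 11, 32283511–32284465) followed with 91838, 44302 and 60102 UMIs, and *Hba-a2* with 71645, 32653 and 45091. *Hbb-bt* gave the fewest, with 44564, 19018 and 27545. All 4 were found in every barcode, except *Hbb-bt* in 1 of the 28 *PLPtg* barcodes. *Hbb-bs* exceeded *Hbb-bt* in all 115 barcodes and *Hba-a1* exceeded *Hba-a2* in 113.

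The share of alpha genes among globin UMIs was 37.3% (37.2–37.5%) in *Wt*, 38.4% (38.2–38.6%) in *PLPmut* and 40.6% (40.4–40.8%) in *PLPtg*. Single barcodes differed far more than the libraries did. The lowest, median and highest share was 25.5%, 37.9% and 64.8% in *Wt* (SD 6.16), 31.9%, 39.8% and 60.1% in *PLPmut* (SD 7.51) and 17.2%, 41.9% and 62.3% in *PLPtg* (SD 7.46). The ratio of *Hba-a1* to *Hba-a2* was 1.28, 1.36 and 1.33, and that of *Hbb-bs* to *Hbb-bt* 5.16, 5.49 and 4.58. The embryonic globins *Hba-x*, *Hbb-y*, *Hbb-bh1* and *Hbb-bh2* gave no UMI in any library. The theta globins *Hbq1a* and *Hbq1b* were present at low counts, with 22, 10 and 15 UMIs together.

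Since UMIs of microglial genes alter every share of non-globin UMIs, levels of single red cell genes are given for the 99 gene-poor barcodes, as UMIs per 10000 adult globin UMIs, in the order *Wt*, *PLPmut* and *PLPtg*. A UMI count at the 3′ end does not depend on transcript length. On this scale the erythroid set of 61 genes reached 150 (146–154), 138 (133–144) and 149 (144–154). The ratio to *Wt* was 0.923 (0.881–0.967) for *PLPmut* and 0.992 (0.95–1.04) for *PLPtg*. The *PLPmut* value rested in part on 1 barcode, without which it was 125. Over all erythrocyte-lineage barcodes, gene-rich ones included, the values were 154, 137 and 170. In gene-rich barcodes alone they were 173 (164–182), 110 (90.4–132) and 291 (274–308). The *PLPmut* value came from 1 barcode, and of the 4 *PLPtg* barcodes 2 stood at 311 and 362 and the others at 123 and 160.

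Heme synthesis was represented by its first and last enzymes. *Alas2* (ENSMUSG00000025270, chromosome X, 150547375–150570638), the erythroid aminolevulinate synthase, gave 902, 468 and 516 UMIs in 41, 17 and 20 gene-poor barcodes, a level of 25.3 (23.7–27.0), 24.6 (22.4–26.9) and 23.5 (21.5–25.6). It was nearly the same in all 3 libraries, with a ratio to *Wt* of 0.97 (0.87–1.09) in *PLPmut* and 0.93 (0.83–1.04) in *PLPtg*. In all microglia-marker barcodes together it gave 11, 2 and 11 UMIs. After thinning each barcode to 500 non-globin UMIs, *Alas2* was found in 84.4% of 32 *Wt*, 100% of 8 *PLPmut* and 100% of 18 *PLPtg* erythrocyte-lineage barcodes deep enough for it, against 0.02%, 0% and 0.03% of microglia-marker barcodes. Without thinning the shares were 78.5%, 81.8% and 85.7%.

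*Fech*, the ferrochelatase, stood at 3.84 (3.22–4.54), 4.31 (3.43–5.35) and 5.64 (4.69–6.72) per 10000 globin UMIs. The *PLPtg* value was 1.47-fold (1.14–1.89) that of *Wt*, and 1.37-fold (1.04–1.79) when the barcode with most *Fech* UMIs was left out of each library. The enzymes between the ends of the pathway were scarce. *Urod* gave 24, 7 and 4 UMIs in gene-poor barcodes, *Cpox*, *Alad*, *Uros* and *Ppox* gave at most 6 UMIs each per library in all erythrocyte-lineage barcodes, and the mitochondrial transporter *Abcb10* gave none. Of 12 heme synthesis genes, 3 (*Alas2*, *Fech* and *Urod*) had enough UMIs (at least 20 in both libraries together) for a ratio in each comparison. The median was that of *Alas2*, 0.97 in *PLPmut* and 0.93 in *PLPtg*. In *PLPtg* the other genes went opposite ways beyond counting error, *Fech* higher and *Urod* at least 2-fold lower. Of all 327 genes compared in *PLPtg*, 6.12% were at least 2-fold lower.

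Transcripts for iron storage and mitochondrial iron import were present, and those of the iron uptake receptors were nearly absent. The transferrin receptor *Tfrc* gave 1 UMI in *Wt* and none elsewhere, and *Tfr2* and the ferrireductase *Steap3* gave none. *Slc25a37*, the mitoferrin that brings iron into mitochondria, stood at 2.83, 2.74 and 2.59 per 10000 globin UMIs, without a difference beyond counting error. The ferritin genes *Ftl1* and *Fth1* stood at 16.5, 12.4 and 15.5 and at 7.96, 6.00 and 9.42. In *PLPmut* both were 0.75-fold the *Wt* level (0.64–0.87 and 0.60–0.94). Microglia transcribe both ferritin genes as well, and the microglia list was lower in the same *PLPmut* barcodes, so the part of microglial RNA in this difference was not tested.

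Genes of the red cell membrane lay on either side of the *Wt* level relative to globin, most with few UMIs behind them. *Slc4a1*, the anion exchanger band 3, gave 30, 8 and 8 UMIs in 9, 3 and 4 gene-poor barcodes, a ratio to *Wt* of 0.50 (0.20–1.12) for *PLPmut* and 0.43 (0.17–0.97) for *PLPtg*. *Tspo2*, a translocator protein of late erythroblasts, gave 20, 4 and 8, with a ratio of 0.38 (0.09–1.12) for *PLPmut*. These genes were found in a minority of barcodes, so that a few barcodes set each value. *Cd24a*, a surface glycoprotein, stood at 3.28, 3.89 and 3.96, and the skeleton gene *Epb41* (protein 4.1) at 2.35, 2.10 and 3.37, with a ratio of 1.43 (1.03–1.98) in *PLPtg*. *Rhag*, *Icam4* and *Aqp1* gave no UMI.

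Enzymes of gas exchange and of protection from peroxide were abundant. *Bpgm* (chromosome 6, 34476207–34505613), which makes the bisphosphoglycerate that lowers the oxygen affinity of hemoglobin, stood at 20.5 (19.0–22), 17.0 (15.2–18.9) and 18.2 (16.5–20.1). Its ratio to *Wt* was 0.83 (0.73–0.95) in *PLPmut* and 0.89 (0.79–1.01) in *PLPtg*. *Car2*, a carbonic anhydrase, stood at 6.11 (5.32–6.98), 2.37 (1.73–3.17) and 2.91 (2.24–3.72), a ratio of 0.39 (0.27–0.54) and 0.48 (0.35–0.63) to *Wt*. It was unevenly spread, with UMIs in 15 of 54, 6 of 21 and 7 of 24 gene-poor barcodes. *Blvrb*, biliverdin reductase B, stood at 3.05, 1.05 and 2.87, a ratio of 0.34 (0.20–0.56) in *PLPmut* and 0.94 (0.68–1.29) in *PLPtg*. Leaving out the barcode of each library with most UMIs of the gene gave 0.26 for *Car2* and 0.35 for *Blvrb* in *PLPmut*.

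*Gpx1*, the glutathione peroxidase, was a case in which 1 barcode decided the value. It stood at 17.0, 20.8 and 15.6, a ratio of 1.22 (1.07–1.39) in *PLPmut* and 0.91 (0.80–1.05) in *PLPtg*, but 1 *PLPmut* barcode held 148 of its 395 UMIs. Without the top barcode of each library the ratios were 0.94 (0.80–1.09) and 0.76 (0.65–0.89). *Prdx2*, a peroxiredoxin abundant in red cells, stood at 4.90, 3.63 and 5.09.

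The 9 genes tied to the clearance of organelles and to ubiquitin that had enough UMIs for a ratio lay within 2-fold of *Wt* in both mutant libraries, except *Bcl2l1* in *PLPtg*. Over all genes compared in the same barcodes, 1.12% were at least 2-fold higher and 33.5% at least 2-fold lower in *PLPmut*, and 7.34% and 6.12% in *PLPtg*. *Mkrn1*, a ubiquitin ligase, stood at 13.1 (11.9–14.3), 14.3 (12.6–16.1) and 15.5 (13.9–17.2). *Ube2l6*, a conjugating enzyme for the ubiquitin-like Isg15, stood at 9.02, 9.15 and 8.78. *Bnip3l*, the receptor that marks mitochondria of reticulocytes for removal, stood at 6.39 (5.59–7.27), 7.99 (6.77–9.37) and 8.28 (7.12–9.57). Its ratio to *Wt* was 1.25 (1.01–1.54) in *PLPmut*, or 1.16 (0.92–1.46) without the top barcodes, and 1.30 (1.06–1.58) in *PLPtg*. *Bcl2l1*, which encodes the survival protein Bcl-xL, gave 22, 8 and 31 UMIs, a ratio of 2.29 (1.28–4.15) in *PLPtg*. *Gabarapl2* and *Map1lc3b*, ubiquitin-like proteins of the autophagosome membrane, stood at 4.34, 3.94 and 4.37 and at 3.64, 2.52 and 3.68.

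**Figure D3:**
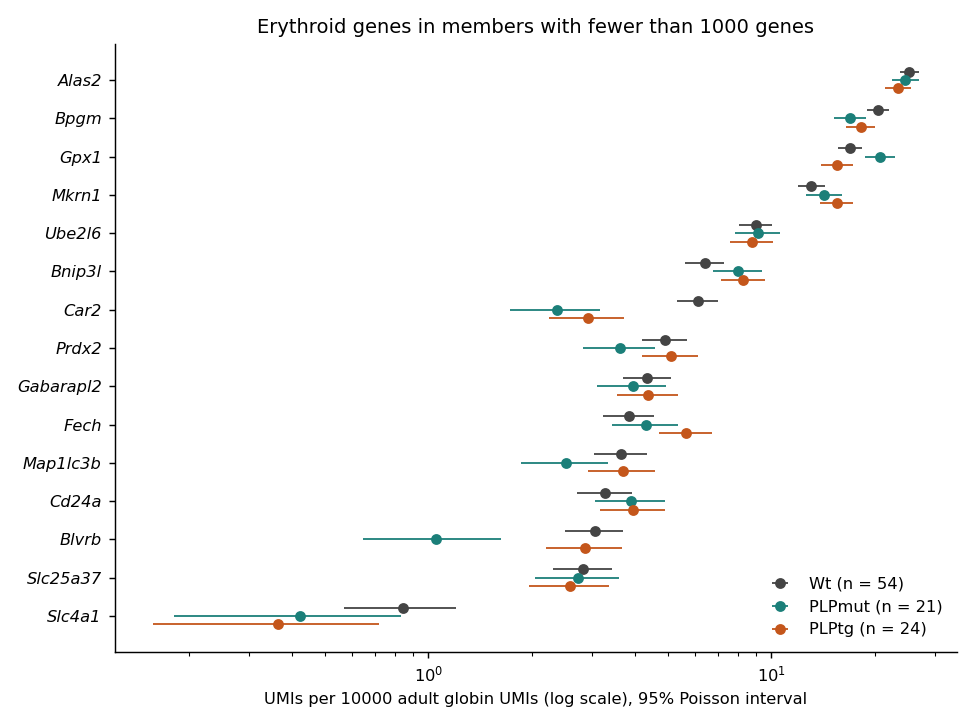
UMIs per 10000 adult globin UMIs (log scale, x) of 15 red cell genes (y, ordered by the *Wt* value) in gene-poor erythrocyte-lineage barcodes of the 3 libraries; points are summed UMIs and bars are 95% Poisson intervals for counting error only. *Alas2* heads the plot with overlapping bars, and *Car2* and *Blvrb* show a wide gap between *Wt* and *PLPmut*.

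Most of the factors that switch on red cell genes, and most progenitor genes, gave few UMIs or none. *Gata1* gave 0, 1 and 0 UMIs in all erythrocyte-lineage barcodes of the 3 libraries, *Nfe2* 0, 1 and 1, *Tal1* 4, 0 and 0, and *Klf1*, *Gfi1b* and *Bcl11a* none. *Lmo2* gave most UMIs of this list, with 48, 7 and 23. The list of 12 factors took 0.0859%, 0.110% and 0.110% of non-globin UMIs, against 0.0644%, 0.0638% and 0.0572% in microglia-marker barcodes. The progenitor genes *Kit*, *Gata2*, *Mycn*, *Cpa3*, *Tespa1* and *Muc13* gave no UMI and *Cd34* 21, 3 and 3. Among cell division genes *Ube2c*, which marks proteins for destruction in mitosis, gave 57, 19 and 29 UMIs and *Nusap1*, which binds the spindle, 14, 13 and 40, while *Top2a* and *Cenpf* gave 1 UMI each. The list of 15 G2M phase genes, nearly all of it from *Ube2c* and *Nusap1*, took 0.0680%, 0.186% and 0.163% of non-globin UMIs, against 0.00235%, 0.00154% and 0.00402% in microglia-marker barcodes. Over all erythrocyte-lineage barcodes, the factor list and the G2M list were thus each a larger share of non-globin UMIs than in microglia-marker barcodes. In gene-rich barcodes alone the factor list took 0.0776%, 0.0569% (from 4 UMIs) and 0.0729%. The *PLPmut* value there lay below that of microglia-marker barcodes, and the G2M list gave no UMI in that barcode.

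The counts of single gene-poor barcodes are described here against their globin UMIs. Among gene-poor barcodes, Spearman's rho between globin UMIs and erythroid set UMIs was 0.93 in *Wt* (n = 54), 0.93 in *PLPmut* (n = 21) and 0.87 in *PLPtg* (n = 24), for all non-globin UMIs 0.86, 0.95 and 0.83, and for the microglia list -0.04, 0.39 and 0.23. These values are descriptive, since depth enters both counts of a barcode and globin UMIs selected the barcodes. Barcodes with at least 5000 globin UMIs (29, 15 and 14) held 164 (159–168), 143 (138–149) and 152 (147–157) erythroid set UMIs per 10000 globin UMIs. Those below 5000 (25, 6 and 10) held 37.6 (31.7–44.2), 18.7 (9.95–32.0) and 95.2 (78.4–115). The higher class stood at 4.36, 7.65 and 1.59 times the lower one. Globin UMIs selected the barcodes, divided them and were the denominator, so these ratios are a description only.

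One *PLPtg* barcode, picked out after its values were seen, decided the last ratio. It held 1028 UMIs, of which 257 or 25.0% were globin, from 443 genes, with 55 erythroid set UMIs (2140 per 10000 globin UMIs) and 112 *Malat1* UMIs (14.5% of non-globin UMIs). It also held 10 UMIs of *Xpo7*, a nuclear exporter, 4 each of *Alas2* and *Mkrn1*, and 3 of the erythroid regulator *Sox6*, a gene outside the lists, with 14 microglia list UMIs (1.82%). Without it, the *PLPtg* barcodes under 5000 globin UMIs held 49.5 (37.5–64.2), and the ratio was 3.06. Without it *Malat1* in gene-poor *PLPtg* barcodes was 1.45% of non-globin UMIs. Of the gene-poor *PLPtg* barcodes left, those with 660 and 881 genes held 63 and 72 *Malat1* UMIs, and the rest held at most 14 each. A few barcodes thus set much of this value.

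*Alas2* stood at 15.7 (12.0–20.2), 4.31 (0.890–12.6, from 3 UMIs) and 15.3 (9.07–24.2) per 10000 globin UMIs below 5000 globin UMIs, and at 26.4 (24.7–28.3), 25.4 (23.1–27.8) and 23.9 (21.9–26.1) above. The intervals overlapped in *PLPtg*. It was absent from 13 of 25, 4 of 6 and 4 of 10 barcodes below and from none above, where each barcode held more UMIs. Microglia list UMIs per barcode were alike on either side, with a median of 16, 7.5 and 18.5 below and 16, 9 and 23 above. The microglia list was therefore a larger share of non-globin UMIs below (5.88%, 4.53% and 4.76%) than above (2.13%, 1.68% and 2.26%). The alpha share of globin UMIs was 41.0%, 49.9% and 43.7% below and 37.5%, 38.2% and 40.8% above.

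**Figure D4:**
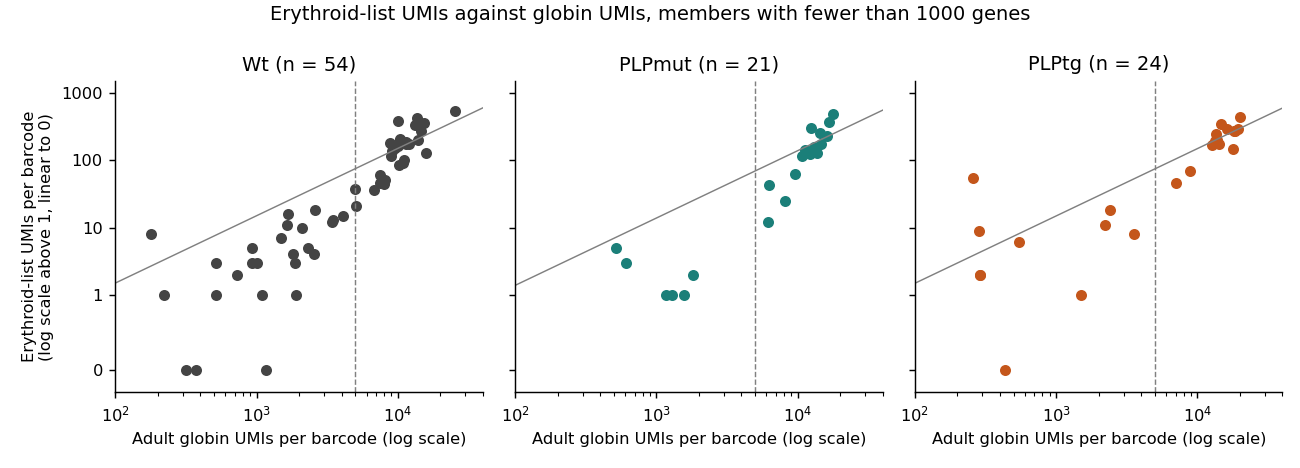
Erythroid set UMIs (y) against adult globin UMIs (x) of each gene-poor erythrocyte-lineage barcode, 1 panel per library (log axes, linear below 1); the dashed line marks 5000 globin UMIs and the grey line the mean ratio of the library. Most points left of the dashed line fall below the grey line, and 1 *PLPtg* point at 257 globin UMIs lies far above it.

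Even among barcodes with at least 5000 globin UMIs, the red cell transcripts varied several-fold. The erythroid set per 10000 globin UMIs had a lowest, median and highest value of 41.4, 150 and 378 in *Wt* (SD 81.5), 19.6, 118 and 273 in *PLPmut* (SD 73.7) and 65.4, 147 and 239 in *PLPtg* (SD 50.2). *Alas2* varied less, from 13.8 over 25.5 to 38.7 in *Wt*, from 9.80 over 25.7 to 37.3 in *PLPmut* and from 15.4 over 24.2 to 39.2 in *PLPtg*. *Car2* was uneven in *Wt*, with a median of 1.06 and a highest value of 51.6, and had a median of 0 in both mutants. The ranges of the 3 libraries overlapped for all of these.

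The comparison between libraries across all genes was made with different barcodes and denominators. For all erythrocyte-lineage barcodes and per non-globin UMI, 860 genes could be compared between *PLPmut* and *Wt*, of which 10.8% were at least 2-fold higher and 23.3% at least 2-fold lower in *PLPmut*. For *PLPtg*, 7.67% of 1030 genes were at least 2-fold higher and 14% at least 2-fold lower. Of the erythroid set, 15 of 27 compared genes were 2-fold higher in *PLPmut* (*Alas2*, *Bpgm*, *Mkrn1* and *Bnip3l* among them) and 1, *Cd47*, was lower, with a median ratio of 2.11 against 0.830 over all compared genes. In *PLPtg* 6 of 29 were higher and 0 lower, with a median of 1.55 against 0.946.

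Both the barcodes and the denominator were then changed, to gene-poor barcodes and globin UMIs. There 1.12% of 269 genes were at least 2-fold higher and 33.5% at least 2-fold lower in *PLPmut*, and 7.34% and 6.12% of 327 genes in *PLPtg*. Of 25 erythroid set genes compared, 0 were higher and 4 lower in *PLPmut* (*Car2*, *Blvrb* and *Tspo2* among them), with a median ratio of 0.86 against 0.650 over all genes. In *PLPtg* 1 was higher (*Bcl2l1*) and 3 lower (*Car2*, *Urod* and *Slc4a1*), with a median of 0.97 against 1.04. The microglia list had 9 of 12 genes at least 2-fold lower in *PLPmut*, with a median ratio of 0.38, and 1 of 12 in *PLPtg*, with a median of 1.00. The 11 gene-rich *Wt* barcodes and 1 in *PLPmut* entered the first comparison and not the second. Leaving out gene-rich barcodes alone, with non-globin UMIs kept as the denominator, changed the number of genes at least 2-fold apart from 293 of 860 to 48 of 269 compared in *PLPmut* and from 223 of 1030 to 42 of 327 in *PLPtg*.

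The genes with the largest ratios of all erythrocyte-lineage barcodes on the non-globin scale mostly had few UMIs. In *PLPmut* these included *Nusap1* with 13 UMIs against 14 in *Wt* (5.72-fold, 2.48–13.1), *Cox6c* with 17 against 27, *Ybx3* with 16 against 26 and *Carhsp1* with 13 against 23. At the other end *Klf4*, a transcription factor, gave 70 UMIs in *Wt*, 53 of them in 1 barcode, and none in *PLPmut*, and *Prdx1*, *Slc40a1*, *Abca1* and *Rpl31* gave 29, 26, 24 and 22 against none. In *PLPtg* the largest ratios were those of *Cdc25b*, a phosphatase of the cell cycle, with 27 UMIs against 7 (9.53-fold, 4.05–25.9), *Nusap1* with 40 against 14, 17 of them in 1 barcode, and *Fam210b* with 26 against 10 (6.42-fold, 3.00–14.9). *Aldh1a1*, a retinal dehydrogenase, followed with 15 against 7.

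*Apoe*, the apolipoprotein that microglia of diseased white matter make in excess, was the fifth, with 101 UMIs in *PLPtg* against 49 in *Wt*, a ratio of 5.09 (3.58–7.31). In microglia-marker barcodes its ratio was 8.0 in *PLPtg* and 3.14 in *PLPmut*, beside 3.02 in erythrocyte-lineage barcodes of *PLPmut*. The smallest *PLPtg* ratios came from 1 UMI of *Fosb* against 110 in *Wt* (35 of these in 1 barcode), 8 of *Hspa1b* against 206 (60 in 1 barcode), and 1 each of *Fchsd2*, *Socs3* and *Gpr84* against 31, 29 and 29. *Hspa1b*, an inducible heat shock protein, had a ratio of 0.553 in microglia-marker barcodes of *PLPtg*.

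Genes were ranked by the smallest, over the libraries, of their ratios of erythrocyte-lineage to microglia-marker barcodes. Only genes with at least 200 UMIs per 1000000 non-globin UMIs in the erythrocyte-lineage barcodes of every library were ranked. The filter and the ranking favour genes high in this group in every library, so the list is a description only. After the globins it was led by *Alas2*. Also among the first 20 were *Apol11b*, *Trim10*, *Slc4a1*, *Tspo2*, *Cd24a*, *Bpgm*, *Car2*, *Isg20*, *Rec114*, *Cdr2*, *Gda*, *Ube2l6*, *Ube2c*, *Rsad2*, *Fam213a*, *Fech* and *Fam220a*. By UMIs the leading non-globin genes were a mixture of red cell genes (such as *Alas2*, *Gpx1*, *Bpgm*, *Mkrn1*, *Ube2l6*, *Bnip3l*), microglial genes (such as *Cst3*, *C1qa*, *C1qb*, *Ctsd*) and genes of many cells (*Malat1*, *Ubb*, *Ftl1*, *Oaz1*, *Tmsb4x*, *Fth1*, *Jun*, *Gm42418*). In barcodes thinned to 500 non-globin UMIs, *P2ry12* was found in 17 of 32 *Wt* (53.1%, 34.7–70.9%), 1 of 8 *PLPmut* (12.5%, 0.316–52.7%) and 7 of 18 *PLPtg* erythrocyte-lineage barcodes (38.9%, 17.3–64.3%), against 70.0%, 71.4% and 63.8% of microglia-marker barcodes. Thinned to 1000 UMIs instead, the shares of *P2ry12* were 72.2% of 18, 50% of 4 and 66.7% of 12 barcodes, against 88.0%, 88.5% and 81.5% of microglia-marker barcodes. For *C1qa* the shares at 500 UMIs were 71.9%, 50% and 88.9% against 97.9%, 98.1% and 97.6%.

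Little globin was found outside the erythrocyte-lineage barcodes. All other barcodes together held 8742 globin UMIs in *Wt*, 1955 in *PLPmut* and 5770 in *PLPtg*, or 1.96%, 0.966% and 2.18% of the globin UMIs of each library. A globin UMI was present in 41.7%, 16.9% and 35.4% of microglia-marker barcodes, in which globin made up 0.0112%, 0.00255% and 0.00827% of UMIs. The alpha share of all globin UMIs outside the group was 36.9% (35.9–37.9%), 36.4% (34.2–38.5%) and 37.6% (36.4–38.9%), beside 37.3%, 38.4% and 40.6% inside it. The ratio of *Hbb-bs* to *Hbb-bt* outside the group was 5.93 (5.50–6.40), 6.54 (5.55–7.75) and 6.45 (5.86–7.11), against 5.16, 5.49 and 4.58 inside it. These globin genes selected the group, so the values inside and outside it are set side by side only as a description. In other barcodes with fewer than 1000 UMIs globin made up 0.0882%, 0.0277% and 0.0689%. *PLPmut* had the smallest amount of globin in its other barcodes. Its share of erythrocyte-lineage barcodes (0.221%) was close to that of *PLPtg* (0.230%), which held more globin outside the group.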

How the data were processed

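Libraries were made by the authors with a droplet 3′ kit and deposited as 1 matrix of UMI counts per library. Their methods name Cell Ranger 2.0.2 with STAR 2.5.1b, the mm10 genome and Seurat 4.0, whereas the matrix headers give software version 3.1.0. How duplicates of a gene share reads and how cells were called were not given in the sources used here. The deposited counts were used without normalization, and every barcode held at least 500 UMIs.

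UMIs were summed over the barcodes of each class and library. Shares carry exact Clopper-Pearson intervals, levels exact Poisson intervals and ratios exact conditional intervals (95%), with molecules counted once by UMI. A gene was compared between libraries from 20 UMIs in both together. For detection, barcodes were thinned to 500 non-globin UMIs, which left out 33 *Wt*, 14 *PLPmut* and 10 *PLPtg* members. Named genes were those of the lists and the 20 with most UMIs per 1000000 non-globin UMIs. Also named were the 20 with the largest smallest ratio to microglia-marker barcodes. These had to reach at least 200 UMIs per 1000000 in the members of every library. The 5 largest and 5 smallest ratios of each comparison were added, without mitochondrial genes. For these, a gene needed at least 200 UMIs per 1000000 in 1 library and a UMI in at least 5 members of the higher library. Some genes that these rules take in are not reported here. The members and all lists were chosen with earlier results of these data known. The erythroid set was joined from 4 lists, and the division at 1000 genes, the globin scale and the 5000 globin UMI limit were set, after the data were seen. No doublet caller was run.

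Ratios between libraries and their intervals were tested on simulated Poisson counts with known folds. The simulation did not gather UMIs in single barcodes, and the intervals of shares and levels were not tested in it. Python 3.11.15, numpy 2.4.6, scipy 1.17.1, pandas 2.3.3, matplotlib 3.10.9 and Biopython 1.88 were used. Promoter windows were taken from RefSeq and gene coordinates from GENCODE M21, both on GRCm38, the assembly of mm10. Reads of near-identical copies, such as the alpha globin genes, may have been split or dropped.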

Additional observations from a re-analysis of the deposited data

How the results depend on the processing

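No paired analysis was possible because each group has 1 library. Leaving out replicates was not possible either. Shares of erythrocyte-lineage barcodes and the detection of *Alas2* moved by less than counting error under the alternatives tried. The ratio of the *Wt* share to that of *PLPmut* was lowest in gene-poor barcodes, at 1.89 (1.12–3.29). Values below are in the order *Wt*, *PLPmut* and *PLPtg* unless named. The alternatives with fewer than 1000 genes, per globin UMI and without single barcodes were chosen after seeing the data, and the causes of the shifts were not tested beyond what each alternative leaves out.

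The alpha share of globin UMIs moved to 37.8%, 38.6% and 41.0% in gene-poor barcodes and to 37.9%, 37.9% and 42.3% in barcodes with under 1% microglia list UMIs (only 4, 2 and 1 of them). It was 37.7% in *Wt* from 50% globin and 40.4% in *PLPtg* without the deepest barcode. The erythroid set, 6.38%, 16.0% and 10.3% of non-globin UMIs over all members, was 17.9%, 25.9% and 16.7% in gene-poor barcodes and 25.1%, 31.4% and 25.2% under 1% microglia list. It was 1.24%, 1.26% and 1.46% of all UMIs, 4.23%, 23.4% and 7.18% as a median over barcodes, and 154, 137 and 170 per 10000 globin UMIs. Without the deepest barcode it was 5.98%, 14.3% and 10.96%, in *Wt* 10.9% from 50% globin, and in *PLPtg* 10.7% from 1000 UMIs.

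Genes at least 2-fold apart from *Wt* numbered 293 of 860 compared in *PLPmut* and 223 of 1030 in *PLPtg*. The numbers were 77 of 497 and 99 of 651 from 50% globin, 17 of 62 and 18 of 53 under 1% microglia list, 48 of 269 and 42 of 327 in gene-poor barcodes, 108 of 361 and 89 of 450 from 50 UMIs together, 1560 of 3327 and 2152 of 5500 from 1 UMI in each library, and 681 of 860 and 354 of 1030 per globin UMI. Several of these alternatives compared fewer or more genes, which alone moves such counts. The *PLPtg* ratio of the erythroid set between globin-rich and globin-poor barcodes was 3.06 without 1 barcode in place of 1.59. Depth limited genes with few UMIs. With 42902 or fewer non-globin UMIs in each mutant library, the limit of 3 UMIs set here for a count of 0 corresponds to 0.00699% of non-globin UMIs in *PLPtg* and 0.0174% in *PLPmut*.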
